A study of Mus musculus with 8 samples.

Results

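The lipocalin genes of mouse chromosome 2 were followed in thyroids 24 hours after exposure to 99mTcO4-, the pertechnetate ion of a radioactive technetium, which thyrocytes take up through the iodide transporter. The 9 genes Lcn2, Lcn3, Lcn4, Lcn5, Lcn6, Lcn8, Lcn9, Lcn10 and Lcn12 were taken as the members, and every probe that carried the name of a member was read. These 9 were found among 23497 named genes on the array, through 11 of its 55681 probes, since Lcn6 and Lcn12 each had 2. The members were chosen from their signals in exposed against control thyroids on these same arrays, so their differences are given as a description and no test is drawn from them. All mice were female Balb/c mice aged 8 weeks. Those of the exposed group (Tc, n = 4) had received an intraperitoneal injection of 99mTcO4- giving an absorbed dose of 30 Gy to the thyroid, with thyroids labelled S539, S588, S589 and S590. Those of the control group (Ct, n = 4, numbered 1 to 4) were described by the study both as untreated and as given saline. RNA of each thyroid was hybridised to a one-colour Agilent array, where a brighter spot means that more of a transcript bound to its probe. Signals below are log2 values after background subtraction and quantile normalization, and a difference is the exposed mean minus the control mean with its standard error (SE) from limma.

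Lipocalins are small secreted proteins that fold into a barrel with a deep cavity, in which they carry a lipid-like or otherwise poorly soluble ligand. Many lipocalin genes lie in a row on mouse chromosome 2, and several of them (Lcn5, Lcn6, Lcn8, Lcn9, Lcn10 and Lcn12) are known as genes of the epididymis, the duct in which sperm mature. Lcn3 and Lcn4 are known from the vomeronasal and nasal glands, where they are thought to carry odorants and pheromones. Lcn2, also called neutrophil gelatinase-associated lipocalin, binds the siderophores by which bacteria take up iron, and is stored in neutrophil granules and released by injured epithelia.

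The arrays held a strong thyroid signal, with Tg, the thyroid hormone precursor, at a mean log2 of 18.85 in controls and 18.89 in exposed thyroids. Genes of tissues around the gland were also bright, among them Pth, the parathyroid hormone, at 18.30 and 18.53, and 8 of 8 skeletal muscle genes were well above background on every array. All 8 muscle genes had lower means in exposed thyroids, with a median difference of −1.01 and a summed linear signal of 788381 to 1714657 in controls and 399047 to 1329591 in exposed thyroids, and 0 of them passed the threshold on the limma adjusted p or an unadjusted p under 0.05. Of 12 thyrocyte genes 1 passed, against 1.12% of all named genes. It was Dio1, a deiodinase that activates thyroid hormone, which fell by 2.46 on the log2 scale (SE 0.30, limma adjusted p = 0.0153). Of the 12, 10 had lower means in exposed thyroids, with a median difference of −0.47. At an unadjusted limma p under 0.05, 4 were lower and 0 higher, where 6772 of all 55681 probes were under it in either direction. What part these shifts have in the lipocalin signals was not tested. Between 60.5% and 77.3% of the spots of an array were well above background. The 8 arrays lay on 1 slide, with exposed samples in its first row and controls in its second, so that array position and exposure cannot be told apart. In whole glands, fewer cells of a type and less RNA per cell cannot be told apart either.

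The 60-base probes of Lcn8, Lcn5 and Lcn10 are shown because these 3 genes lie within 30.4 kb of each other and the first pair of them stood far apart between the groups while the last did not. Positions were read from the array files, which use build mm9, and lie on the plus strand of chromosome 2. The Lcn8 probe lies at chr2:25510679-25510738, the Lcn5 probe at chr2:25516456-25516515, and the Lcn10 probe is spread over chr2:25540631-25541104, so that its 60 letters are not continuous in the genome. All are written 5′ to 3′.
Lcn8 probe: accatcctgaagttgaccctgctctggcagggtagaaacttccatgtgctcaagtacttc
Lcn5 probe: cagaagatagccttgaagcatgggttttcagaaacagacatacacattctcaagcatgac
Lcn10 probe: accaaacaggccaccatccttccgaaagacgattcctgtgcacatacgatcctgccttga
Read in the sense direction, the Lcn8 and Lcn5 probes each had 1 reading frame without a stop codon, and the Lcn10 probe had 2. The longest run of letters that the Lcn8 probe shared with a probe of any other gene on the array was 13 bases, and it was 13 for the Lcn5 probe and 15 for the Lcn10 probe.

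The sequences before the transcription starts of the same 3 genes are shown so that the neighbours can be compared letter by letter. They come from RefSeq in build GRCm38.p6, on the plus strand, and end at the base before the earliest annotated start of the gene. Capitals mark TATAA, the letters of a TATA box.
Lcn8 upstream, chr2:25652868-25653117: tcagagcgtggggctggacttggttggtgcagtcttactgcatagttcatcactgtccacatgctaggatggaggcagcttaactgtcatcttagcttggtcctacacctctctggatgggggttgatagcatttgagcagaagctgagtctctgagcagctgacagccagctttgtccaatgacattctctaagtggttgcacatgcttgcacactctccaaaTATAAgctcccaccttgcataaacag
Lcn5 upstream, chr2:25657702-25657931: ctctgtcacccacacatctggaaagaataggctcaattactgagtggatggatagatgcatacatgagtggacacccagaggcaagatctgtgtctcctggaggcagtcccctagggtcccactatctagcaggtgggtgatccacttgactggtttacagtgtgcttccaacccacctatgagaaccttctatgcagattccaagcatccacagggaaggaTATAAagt
Lcn10 upstream, chr2:25682476-25682725: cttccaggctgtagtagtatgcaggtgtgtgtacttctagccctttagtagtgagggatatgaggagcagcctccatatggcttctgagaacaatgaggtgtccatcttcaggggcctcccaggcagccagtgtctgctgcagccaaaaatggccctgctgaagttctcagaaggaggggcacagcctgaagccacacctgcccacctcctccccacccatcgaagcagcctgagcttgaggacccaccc
Over promoter windows of 300 bases, 250 before and 50 after a start, TATAA was found on either strand in 4 of the 9 members, against 24.9% of all 32851 promoters. In these 4 it stood on the strand of the gene, 26 bases before the transcription start used for the window in Lcn8, 28 in Lcn5, 25 in Lcn6 and 29 in Lcn3. This start is the earliest annotated one in Lcn8, Lcn10, Lcn3, Lcn4 and Lcn2. It lies 20 bases beyond the earliest in Lcn5, 65 in Lcn9, 148 in Lcn6 and 150 in Lcn12, so that the printed Lcn5 sequence ends closer to its TATAA. With the first letter limited to 25 to 30 bases before the start, a limit set after these positions were seen, 2.04% of all promoters held it. Of the other letters searched on both strands, CCAAT stood in the windows of 3 members (37.4% of all promoters), AGAACA, a part of androgen and glucocorticoid receptor sites, in 4 (19.0%), TGANTCA, an AP-1 site, in 1 (7.81%) and CACGTG, an E-box, in 0 (7.15%). A p53 half-site was matched in the window of Lcn12 alone, 12 bases before the transcription start used for it, against 8.36% of all promoters. A kappaB site (GGGRNWYYCC, where R is A or G, W is A or T and Y is C or T) was matched in none of the 9, against 4.51%. A match is a run of letters in a window and does not show a site in use. Its absence concerns this window and the exact pattern searched, and other forms of a site were not searched.

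Lcn8 and Lcn5 differed most between the groups, and they are next to each other on the chromosome. Lcn8, an epididymal lipocalin, read 5.68, 7.05, 7.30 and 7.32 on control arrays 1 to 4, and 11.30, 10.81, 10.60 and 10.81 on the arrays of S539, S588, S589 and S590. All exposed arrays lay above all control arrays, with an empty gap of 3.28 between them, and control 1 was the lowest. The mean rose from 6.84 ± 0.78 (SD, n = 4) to 10.88 ± 0.29 (SD, n = 4), a log2 difference of 4.04 (SE 0.38), which is 16.5-fold. The probe was well above background on 4 of 4 control and 4 of 4 exposed arrays, and without control 1 the difference was 3.66. The size of this fold also depends on background subtraction, since the log2 difference was 3.35 in the deposited values, which carry none.

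Lcn5, the epididymal retinoic acid-binding protein, read 5.14, 4.73, 4.97 and 4.97 on control arrays 1 to 4, and 8.30, 7.68, 7.94 and 8.20 on the arrays of S539, S588, S589 and S590. The groups were again apart, by 2.54, and the spread within each was small. The mean rose from 4.95 ± 0.17 (SD, n = 4) to 8.03 ± 0.28 (SD, n = 4), a log2 difference of 3.08 (SE 0.18). The probe was well above background on 4 of 4 exposed arrays but on 1 of 4 control arrays, so the size of this difference depends on how signals near background are treated. Counted from the lowest signal that was well above background on each control array, or from the signal of the probe where that was higher, the difference was 2.61. In the deposited values, which carry no background subtraction, it was 1.54. With the threshold of 0.05 on the limma adjusted p over all probes, the probes of Lcn8 and Lcn5 were the 2 of 11 member probes that passed, where 0.781% of all probes passed, a comparison that the choice of the members has fixed.

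**Figure D1:**
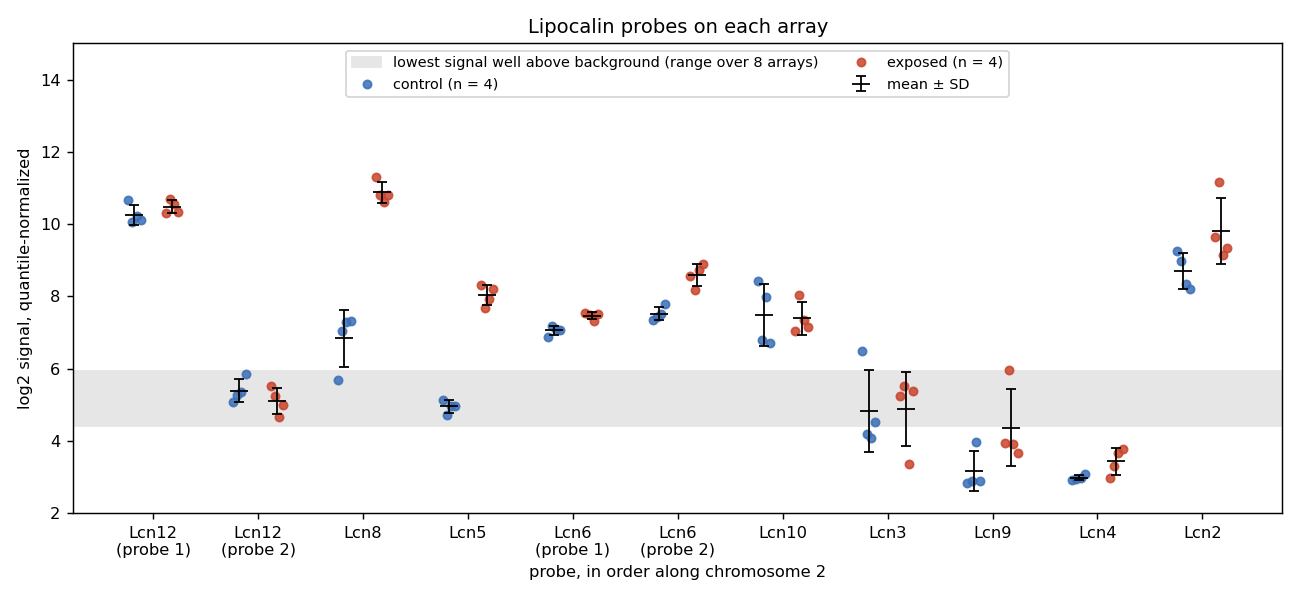
The log2 signal of each of the 11 lipocalin probes (vertical axis) on each array, with the probes in order along chromosome 2; blue points are control and red points exposed arrays, black bars give mean ± SD, and the grey band spans the lowest signals well above background. Lcn8 and Lcn5 are far apart between the groups, the Lcn6 probes are apart by 0.13 and 0.39, and the 8 points of Lcn4 lie under the band.

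Lcn6, a lipocalin found on sperm, is the next member along the chromosome, 19.98 kb beyond Lcn5, and both of its probes were well above background on all 8 arrays. Its probe at chr2:25537069-25537128 read 7.36, 7.44, 7.52 and 7.78 on control arrays 1 to 4, and 8.57, 8.17, 8.72 and 8.89 on the exposed arrays in the order above. Its probe at chr2:25536493-25536552 read 6.88, 7.19, 7.10 and 7.06 in controls and 7.54, 7.48, 7.32 and 7.51 in exposed thyroids. On each probe the lowest exposed array stood above the highest control array. The differences were unequal, 1.06 (SE 0.19) for the first and 0.40 (SE 0.13) for the second, whose gap between the groups was 0.13. Groups that did not overlap, with exposed thyroids higher, were thus found for 4 of the 11 member probes, from 3 genes, against 4.74% of all probes, and the choice of the members has again fixed this count.

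Lcn10, 3.50 kb beyond the last Lcn6 probe, was also well above background on all 8 arrays, but its groups overlapped. It read 8.43, 6.79, 7.98 and 6.71 on control arrays 1 to 4 and 7.03, 8.04, 7.36 and 7.14 on the exposed arrays. Controls 1 and 3 were the high ones and controls 2 and 4 the low ones, and S588 was the highest exposed array. The difference was −0.09 (SE 0.44), and it was 0.12 with 75th percentile scaling of the arrays, a setting that moved the median difference of all probes from 0.01 to 0.16. The SE leaves room for a change of either sign.

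Lcn12, at the other end of the row and 161 kb before Lcn8, was well above background on all 8 arrays through 1 of its probes. That probe, at chr2:25346380-25346439, had a mean of 10.26 ± 0.28 (SD) in controls and 10.48 ± 0.18 in exposed thyroids, with overlapping groups and a difference of 0.22 (SE 0.18). The second probe of Lcn12, at chr2:25349264-25349323, was well above background on 1 of 4 control and 2 of 4 exposed arrays, and gave −0.29 (SE 0.24), or 0.15 with 75th percentile scaling. Both lie on the minus strand, while the probes from Lcn8 to Lcn9 lie on the plus strand.

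Lcn9, at chr2:25680052-25680236, was well above background on none of the control arrays and on 1 exposed array, that of S588. It read 2.84, 2.90, 3.98 and 2.90 in controls and 3.93, 5.96, 3.91 and 3.67 in exposed thyroids. No fold is given for it, since its exposed mean of 4.37 lies under the lowest signals that were well above background on the control arrays. Its difference of 1.21 (SE 0.54) became 0.68 without S588 and 0.41 in the deposited values.

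The members known from vomeronasal and nasal glands were near background in the thyroid. Lcn3, at chr2:25623070-25623129, was well above background on 1 control and 1 exposed array, and ran from 4.09 to 6.49 in controls and from 3.35 to 5.51 in exposed thyroids. Its difference was 0.05 (SE 0.67), within a spread of more than 2 log2 units in both groups, and it was 0.60 without control 1, 0.56 without S589 and 0.60 with 75th percentile scaling. Lcn4, at chr2:26524868-26524927 on the minus strand, was well above background on no array, with signals from 2.92 to 3.08 in controls and from 2.98 to 3.78 in exposed thyroids. Its difference of 0.46 turned to −0.09 in the deposited values, and no fold is given. Genes of mucous and nasal glands were measured beside them, and 0 of 7 passed the threshold, 0 of them also at an unadjusted p under 0.05 and 0 by the methods' t-test. Their summed signal, on the linear scale, was 18483 to 77790 in controls and 18913 to 35402 in exposed thyroids.

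**Figure D2:**
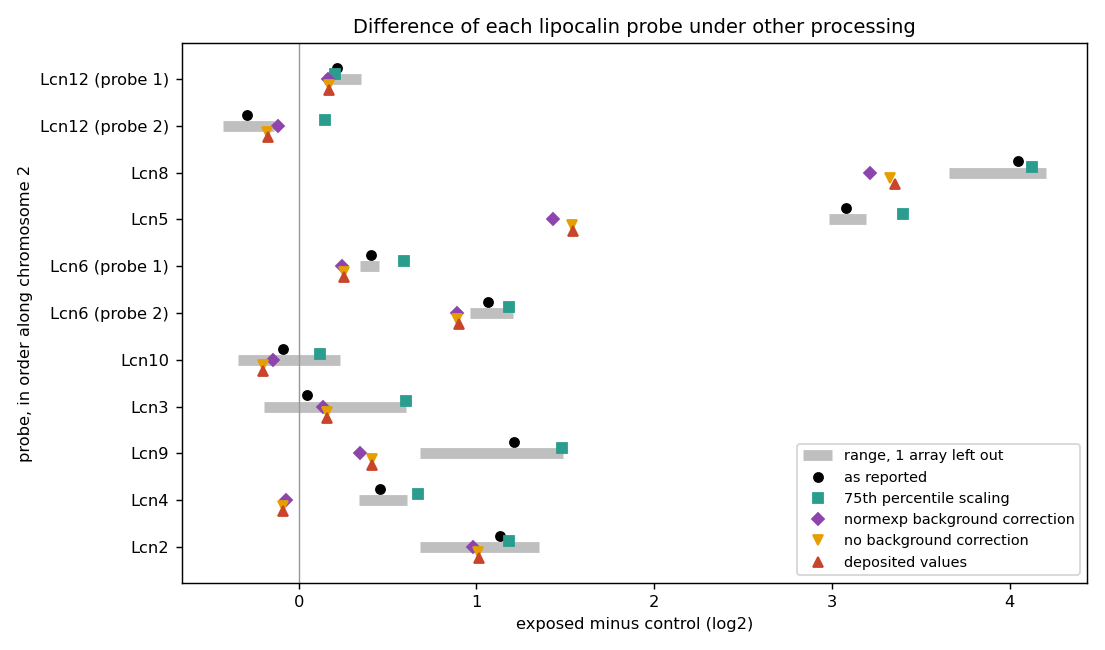
The difference between exposed and control means (horizontal axis, log2) of each lipocalin probe under 5 ways of processing the spots, with a grey bar for the range when 1 array is left out. Lcn8 stays between 3.21 and 4.21, Lcn5 falls from 3.08 to between 1.43 and 1.54 where no background is subtracted or normexp is used, and Lcn12 (probe 2), Lcn10, Lcn3 and Lcn4 lie on both sides of 0.

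Since most members are known as epididymal genes and the mice were female, 17 other genes of the epididymis and male tract were read on the same arrays. Of these, 8 were well above background on no array, among them Defb12, a defensin, Crisp1, a secreted protein that coats sperm, and Rnase11. A further 3 were well above background on all 8 arrays, Defb42, Adam28 and Rnase10. None of the 17 passed the limma threshold, against 1.12% of all named genes, 0 of 17 passed at an unadjusted p under 0.05, and the methods' t-test found 0 after adjustment and 2 at an unadjusted 0.05. The median difference of the 17 was −0.01, and their summed signal was 838 to 998 in controls and 921 to 1698 in exposed thyroids. Crisp1 read from 2.92 to 3.04 in controls and from 2.85 to 3.91 in exposed thyroids, and Defb12 from 3.04 to 3.37 and from 2.91 to 3.03. Neither was well above background on any array. The means of Rnase10 were 8.45 in controls and 8.91 in exposed thyroids, those of Adam28 7.12 and 6.92, and those of Defb42 6.96 and 6.98.

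Lcn2 lies 5715 kb from Lcn4, outside the row, at chr2:32240199-32240258 on the minus strand. It was well above background on all 8 arrays and read 9.24, 8.97, 8.33 and 8.22 on control arrays 1 to 4, and 9.64, 11.16, 9.15 and 9.33 on the arrays of S539, S588, S589 and S590. The highest control lay above the lowest exposed array by 0.09, so the groups overlapped, and S588 stood 1.52 above the next exposed array. The difference was 1.13 (SE 0.47) over all arrays and 0.69 without S588. The exposed thyroid S588 also had the highest signal of 11 of the 14 neutrophil genes measured. S100a8, a calcium-binding protein of the neutrophil cytosol, read 13.35 in S588 against 5.84 to 8.67 on the other 7 arrays. Mmp8, neutrophil collagenase, read 11.14 in S588 and 2.98 to 4.38 on the others, and Camp, a granule peptide, read 11.96 against 6.12 to 6.82.

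The summed signal of the 14 neutrophil genes was 4311 to 9055 in controls and 4091 to 59940 in exposed thyroids, of which the highest was that of S588. Their median difference was 0.79 over all arrays and 0.01 without S588, a recount made after the values were seen, and 0 of 14 passed the limma threshold, with 0 also at an unadjusted p under 0.05 and 0 by the methods' t-test. Ltf, lactoferrin, which is stored in the same granules as Lcn2, read 12.28 in S588 and 12.47 on control 2, so it did not set S588 apart. What part these transcripts have in the Lcn2 signal was not tested. Lcn9, the brighter Lcn12 probe and the non-member Lcn11 were also highest in S588, the Lcn12 probe with control 1 close behind at 10.66, and Lcn11 with 7.08 against 5.59 to 5.95 on the other arrays.

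**Figure D3:**
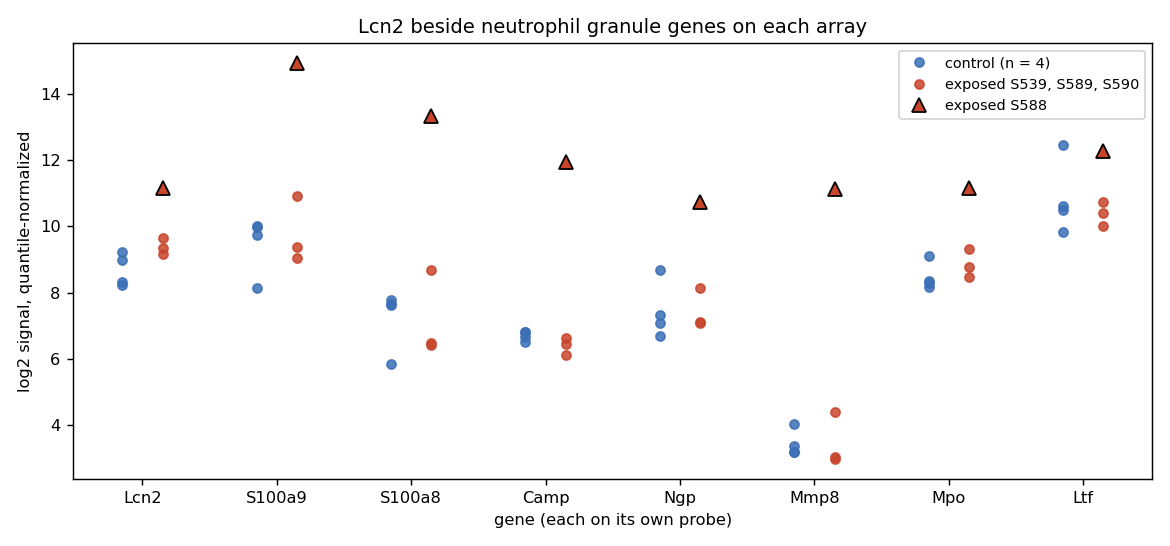
The log2 signal (vertical axis) of Lcn2 and of 7 genes of neutrophils, each on its own probe, with blue points for control arrays, red points for exposed arrays and a triangle for exposed thyroid S588. In S588 the signal is the highest of all arrays for Lcn2 and every gene shown except Ltf, where control 2 reads 12.47 against 12.28.

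Lcn2 is also known as an acute phase gene under NF-kappaB and C/EBP, so 22 genes of that response were read. Of these, 0 passed the limma threshold in either direction, where 1.12% of all named genes did. At an unadjusted p under 0.05, 4 were higher and 4 lower, and the methods' t-test gave 6 at that level and 0 after adjustment. Of all 55681 probes, 6772 were under 0.05 by the unadjusted limma p and 6962 by the methods' t-test. Hp, haptoglobin, a plasma protein that binds haemoglobin, had a mean of 13.97 in controls and 15.06 in exposed thyroids (difference 1.09, SE 0.21, limma adjusted p = 0.077). Cebpb, one of the C/EBP factors, had means of 12.73 and 13.74 (adjusted p = 0.099), Cebpd, another, 12.82 and 13.74 (adjusted p = 0.464), and Tnfaip3, an inhibitor of NF-kappaB, 10.51 and 9.62 (adjusted p = 0.192). Cxcl2, a chemokine that draws neutrophils, read 7.12 in S588 and 8.57 in S590, the 2 arrays where it was well above background, and 2.97 to 3.25 on the other 6 (difference 2.30, SE 1.26, adjusted p = 0.501). Their median difference was 0.15, beside 0.01 over all probes.

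The row from Lcn12 to Lcn4 with 100 kb on either side, 1378.5 kb in all, held 108 probes, of which 10 were those of 8 members and the others included 47 other named genes. Between the Lcn8 and Lcn10 probes no other named gene was measured. The nearest on one side was Fcna, ficolin A, a lectin of complement, 29.9 kb from Lcn8, with means of 7.57 in controls and 7.28 in exposed thyroids. On the other side came Lcn13, named Obp2a in RefSeq, 47.1 kb away and well above background on no array, and A230005M16Rik, a RIKEN cDNA on the minus strand 50.5 kb away. The latter was well above background on 0 control and 3 exposed arrays, with means of 5.16 and 6.01 (difference 0.85, SE 0.46). Next came Bmyc, a gene related to Myc, 52.3 kb away, with means of 12.04 and 12.08. None of these 4 passed the threshold, with limma adjusted p-values from 0.493 to 0.954.

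Of the 47 neighbours, 1 passed the limma threshold, against 1.12% of all named genes. This was 0610009E02Rik, a RIKEN cDNA whose probe lies on the plus strand at chr2:26314780-26314839, 804 kb from Lcn8. It read 10.13, 10.08, 10.12 and 9.59 on control arrays 1 to 4 and 12.15, 12.05, 11.74 and 12.08 in exposed thyroids, so that the groups were apart. The difference was 2.03 (SE 0.18, adjusted p = 0.00434), and with any 1 of the arrays left out the adjusted p ran from 0.0116 to 0.0297. A Notch1 probe on the opposite strand, which starts 150 bases before it, had a difference of 1.77 (SE 0.33, adjusted p = 0.0718), and the Notch1 probe 4.66 kb further on had 0.33 (SE 0.29). Read by the probe of highest mean signal, the other neighbours of the row ran from −0.86 to 0.85, with a median over all 47 of 0.04. Dimmer probes of the same genes lie outside this count, such as a C030048H21Rik probe with a difference of 1.51 (SE 0.96). Ptgds, a lipocalin that makes prostaglandin D2 and the named gene next to Lcn12 on its outer side, had means of 12.38 and 11.92 (adjusted p = 0.508). Gm2240, the named gene nearest to Lcn4, had means of 6.93 and 6.95.

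**Figure D4:**
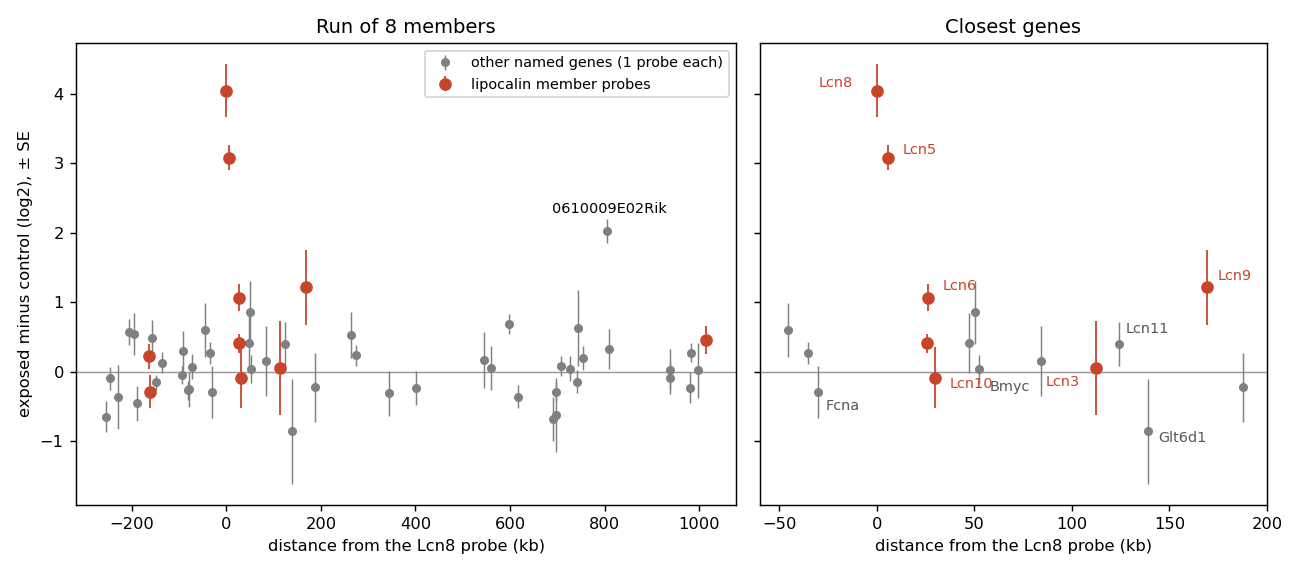
The difference between exposed and control means (vertical axis, log2, with SE) against the distance in kb from the Lcn8 probe, for 10 lipocalin member probes (red) and 47 other named genes (grey, 1 probe each), over the whole row on the left and near Lcn8 on the right. Lcn8 and Lcn5 stand at 4.04 and 3.08, while Fcna stands at −0.29, Lcn13 at 0.41, A230005M16Rik at 0.85 and Bmyc at 0.04, and 0610009E02Rik, 804 kb away, at 2.03.

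Of the 20 lipocalins measured outside the member list, 0 passed the limma threshold, 1 had an unadjusted p under 0.05, and the methods' t-test gave 1 and, after adjustment, 0. That gene was Apod, apolipoprotein D, a carrier of arachidonic acid, with means of 14.11 and 13.67 (difference −0.44, SE 0.17, adjusted p = 0.36). The median difference of the 20, each read by 1 probe, was 0.04. For the 9 members, which were chosen for their differences, it was 1.06 at 1 probe a gene and 0.46 over all 11 probes. Rbp4, the plasma carrier of retinol, had means of 13.46 and 13.77, and C8g, the lipocalin subunit of complement C8, differed by 0.48 (SE 0.25, adjusted p = 0.484). The orosomucoids Orm1, Orm2 and Orm3 and the major urinary proteins are near-identical families, so their probes may not separate the members.

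Of the 20 receptors, ligands and partners of lipocalins reported here, 0 passed the limma threshold, against 1.12% of all named genes. At an unadjusted p under 0.05, 4 were lower and 0 higher in exposed thyroids, and the methods' t-test gave 5 at that level and 0 after adjustment. The same unadjusted level was passed by 6772 of all 55681 probes with limma and by 6962 with the methods' t-test. Bdh2, an enzyme linked to the mammalian siderophore that Lcn2 binds, had means of 8.77 and 7.61 (adjusted p = 0.0758), and Mc4r, a melanocortin receptor to which Lcn2 binds, had 8.45 and 6.87 (adjusted p = 0.135). The Lcn2 receptors Slc22a17 and Lrp2 had means of 13.27 and 13.13, and 12.54 and 12.45. The median difference of the 20 was −0.29.

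The signals most like that of Lcn8 over the 8 arrays were sought among all other named genes. The 5 highest Pearson correlations were those of Slc23a1, a vitamin C transporter (0.996), Tdrd3, a Tudor domain protein (0.996), Polk, a DNA polymerase (0.995), Cpt1c, a carnitine palmitoyltransferase (0.995), and Zmat3, a zinc finger protein (0.994). Like Lcn8, all 5 were higher in exposed thyroids, by 3.33 for Slc23a1, 1.20 for Tdrd3, 2.14 for Polk, 3.04 for Cpt1c and 1.79 for Zmat3. The arrays fall into 2 groups on these probes, so the correlations (n = 8) mostly restate the distance between the groups, and they were picked as the highest of many.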

How the data were processed

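Thyroid RNA of 4 control and 4 exposed mice was hybridised to 8 one-colour arrays, on 1 slide read in 1 scan. The authors deposited the scanner intensity of every spot, made with Feature Extraction 10.7.3.1, and a table of log2 values; per the labels they used limma. Their table matched quantile-normalized median signals without background subtraction, within 0.0378. Background subtraction makes differences of dim probes larger, so both were used.

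Here the background-subtracted intensity of 59305 non-control spots was log2-transformed, quantile-normalized and averaged over the spots of a probe (55681 probes). Differences were fitted with lmFit and eBayes (R 4.3.3, limma 3.58.1), with Benjamini-Hochberg adjustment over all probes and a threshold of 0.05. A p-value sets the difference between the groups against the spread of samples within them, moderated over all probes. It does not cover array position, which cannot be told apart from exposure. The methods' t-test is the test that the study names for comparisons of 2 groups in general; for the arrays it names limma. A gene in a list was read by its probe of highest mean signal. Members and gene lists were chosen with earlier results of these data known. Lists came from general knowledge: other lipocalins (20 of 28 symbols found, the rest not analysed here or present under an older name), partners (20, without 1 further gene that is not reported here), acute phase (22), neutrophil (14 of 15), epididymis (17 of 18), nasal gland (7 of 8), and markers of thyrocytes, parathyroid and muscle. Named were every member, examples with large differences among the list genes well above background on all 8 arrays, the neighbours past the threshold and at each end of the row, and the 5 probes most like Lcn8. Other list genes, such as Tnfaip3, Cxcl2, Crisp1 and Ltf, and the neighbours of Lcn8 were named after their values were seen.

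A filter on dim probes would keep 7 of the 11 member probes, of which Lcn5 only through the exposed arrays. RefSeq GRCm38.p6 gave names and promoter sequences (all 9 members matched), and no coordinates were moved between it and mm9. No spot was saturated. Between 60.5% and 77.3% of spots per array were well above background, with controls 2 to 4 below every exposed array. Precision is limited by the number of arrays. The fit was tested on simulated arrays, whose noise was independent between probes and held no effects of tissue or array.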

Additional observations from a re-analysis of the deposited data

Results flagged for a closer look

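The Lcn8 signal of control 1 was 5.68, set apart from the other controls (7.05 to 7.32) by a gap that is 0.83 of the range of the group, above Dixon's critical value for 4 arrays. It was 1 of 13 groups of arrays tested in this way, and chance alone marks about 1 group in 20. Control 1 also had the lowest 75th percentile of the background-subtracted signal among the controls, 701 against 1144 to 1230. On the exposed arrays this percentile was 712 to 891, so that control 1 lay nearer to them than to the other controls. The thymocyte gene Dntt was also highest on control 1, at 13.75, with control 2 close behind at 13.31 and the other arrays at 7.41 to 9.13. Without control 1 the Lcn8 difference was 3.66, and what part the array has in its Lcn8 signal was not tested.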

How the results depend on the processing

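Lcn8 and Lcn5 passed the threshold in every alternative run, with log2 differences from 3.21 to 4.21 for Lcn8 and from 1.43 to 3.40 for Lcn5. The count of member probes past the threshold was 3, with an Lcn6 probe, under 75th percentile scaling, normexp, no background correction, the deposited values, the filter on dim probes and the variance trend; it was 4 with the methods' t-test at an unadjusted 0.05, and 2 to 3 when 1 array was left out. The median difference of the member probes was 0.46; it was 0.25 with normexp, without background correction and in the deposited values, 0.67 with 75th percentile scaling, 0.39 to 0.61 when 1 array was left out, and 1.06 over the 7 that passed the filter on dim probes, among them Lcn5 through its exposed arrays alone.

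For the other lipocalins the count was 1 with the methods' t-test before adjustment and 0 with each array left out. For the receptors and partners it was 1 under 75th percentile scaling, normexp, the dim filter and the variance trend, 2 without background correction and in the deposited values, 5 with the methods' t-test before adjustment, and 0 to 1 when 1 array was left out. For the neighbours it was 9 with the methods' t-test before adjustment. For the acute phase and neutrophil genes it was 2 under normexp, no background correction, the deposited values, the dim filter and the variance trend, 6 with the methods' t-test before adjustment, and 0 to 1 when 1 array was left out. Over all probes the count was 435. It was 856 with normexp, 962 without background correction, 955 in the deposited values, 733 with the dim filter and 744 with the variance trend. With the methods' t-test it was 289 after adjustment and 6962 before. It ran from 100 (without S590) to 481 (without control 1) when 1 array was left out. The cause of these changes was not tested. Slide as a block was not run, since there was 1 slide. No paired analysis was possible because the groups share no replicate names. Signals near background limit Lcn3, Lcn4, Lcn9 and the Lcn5 controls.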
